A study of Homo sapiens with 8 samples.

Results

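Small interfering RNA (siRNA) against RPL9 was compared with siRNA against RPL17 and against RPL27 in HCT116 and HT29, established human colorectal carcinoma cell lines. In each line, cells had been transfected with 15 nM of NC, RPL9, RPL17 or RPL27 siRNA in a lipid reagent and total RNA was taken after 48 h, which gave 8 libraries, 1 per line and siRNA. The comparison used 6 of the 8 libraries, those with a siRNA against a ribosomal protein gene. In each line the RPL9 library was set against the mean of the RPL17 and RPL27 libraries, so that every library compared had received a siRNA of this kind, and the NC libraries are given only as values beside the results. Values are RPKM (reads per kilobase of transcript, scaled to the mapped reads of the library) as deposited, a difference is one of log2(RPKM + 1), and 14217 of the 19124 genes listed were tested, those whose RPKM averaged 1 or more over these 6. No siRNA was repeated within a line, the labels name 1 siRNA per gene, and nothing in them speaks of separate cultures. A term for cell line takes out the difference in level between the lines. An error or a p-value therefore measures how far the siRNA differences disagree between the lines and how far RPL17 siRNA differs from RPL27 siRNA.

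RPL9, RPL17 and RPL27 encode proteins of the large ribosomal subunit, which is built in the nucleolus from ribosomal RNA and such proteins with the help of many assembly factors. When a protein of this subunit is short, assembly stalls, and free RPL5 and RPL11 can bind the ubiquitin ligase MDM2. A siRNA directs the cleavage of the mRNA that it matches, and can also lower other mRNAs that it matches in part.

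The 8 libraries had a rough depth of 20.6 M to 26.4 M reads (M for mega), estimated from the steps between low values, and listed 13.1 to 15.7% of the genes at 0. A library's deposited values summed to between 6537705 and 7163780 RPKM, so levels were compared between libraries and never between genes. Each library's deviation was taken from the mean of the other RPL siRNA libraries of its line. The HT29 NC library stood apart: its deviation had a rank correlation of -0.61 with transcript length, against -0.08 to 0.07 in the others. It entered no fit of the 6 libraries. With GC content the rank correlation was 0.16 in the HCT116 RPL9 library and -0.25 in the HCT116 RPL17 library, against -0.07 to 0.13 in the other RPL siRNA libraries. The marker genes of colorectal epithelium summed to 19750 to 31540 RPKM in the HCT116 libraries and to 43500 to 49390 RPKM in the HT29 libraries, with CDX1 under 1 RPKM in all 8. The 12 fibroblast markers summed to 368.5 to 535.6 RPKM per library, with 5 of them (DCN, LUM, POSTN, PDGFRA and DPT) under 1 RPKM in all 8 libraries. The 8 endothelial markers summed to 145.2 to 468.2 RPKM, with 3 of them (PECAM1, CDH5 and CLDN5) under 1 RPKM in all 8. The 13 leukocyte markers summed to 106.5 to 153.5 RPKM in HCT116 and to 1941 to 3078 RPKM in HT29, with CD3D and CD2 at 0 in all 8. Between 5 and 8 of the 13 were under 1 RPKM in each HT29 library, and between 6 and 9 in each HCT116 library.

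RPL9 mRNA stood at 5560 RPKM in the HCT116 RPL9 library, against 18619 with RPL17 siRNA, 18823 with RPL27 siRNA and 17432 with NC siRNA. In HT29 it stood at 5245 RPKM with RPL9 siRNA, against 17619 with RPL17 siRNA, 17546 with RPL27 siRNA and 35729 with NC siRNA. The RPL9 libraries were the lowest in both lines, at 29.7% of the mean of the other RPL siRNA libraries in HCT116 and 29.8% in HT29. The difference was -1.75 ± 0.046 (SE, n = 2 libraries against 4; limma adjusted p = 7.77e-05). In these bulk libraries fewer cells with an mRNA and less of it per cell cannot be told apart.

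RPL17 mRNA stood at 27302 RPKM in the HCT116 RPL9 library and at 27912 RPKM in the HT29 RPL9 library. In the RPL27 libraries it stood at 31299 and 28748 RPKM, and in the RPL17 libraries at 10004 and 8240 RPKM. The RPL9 libraries were thus near the RPL27 libraries, and the RPL17 libraries were the low ones. RPL27 mRNA behaved otherwise: in HCT116 it stood at 9280 RPKM with RPL9 siRNA, 4723 with RPL17 siRNA and 2045 with its own siRNA. Its HT29 values were 10530 RPKM with RPL9 siRNA, 4754 with RPL17 siRNA and 2214 with its own siRNA. The RPL9 libraries were therefore above both others in both lines, with RPL27 mRNA higher than in the RPL17 libraries by 1.06 and than in the RPL27 libraries by 2.22 on the log2 scale. Its adjusted p in the comparison of 2 against 4 libraries was 0.21, and for RPL17 it was 0.619. RPL17 shares its sequence with the read-through gene RPL17-C18orf32, and ribosomal protein genes have many near-identical pseudogenes, between which reads may have been split.

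**Figure D1:**
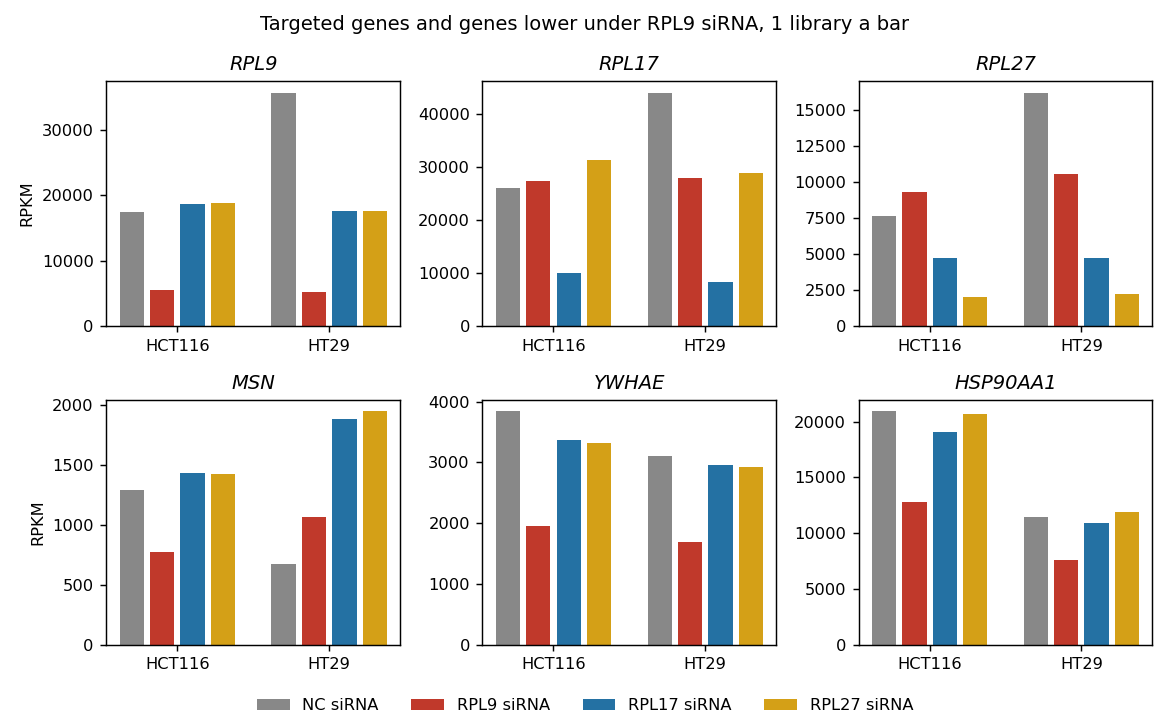
Level in RPKM (y axis, from 0) of the 3 targeted genes (RPL9, RPL17, RPL27) and of MSN, YWHAE and HSP90AA1 in each of the 8 libraries, with 1 bar per library, grouped by cell line and coloured by siRNA. The RPL9 libraries are the lowest of the 3 RPL siRNA libraries of their line for RPL9, MSN, YWHAE and HSP90AA1, and the highest for RPL27.

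Besides RPL9, the comparison of 2 against 4 libraries called 2 genes, both lower with RPL9 siRNA: MSN and YWHAE. The 3 genes called lower were 0.0211% of the genes tested. No gene was called higher by limma (0%), while 923 genes (6.49%) were higher and 1023 (7.20%) lower at an unadjusted p under 0.05. MSN encodes moesin, which links the plasma membrane to cortical actin. In HCT116 it stood at 778 RPKM with RPL9 siRNA, against 1437 with RPL17 siRNA, 1424 with RPL27 siRNA and 1296 with NC siRNA. The HT29 values were 1070 RPKM with RPL9 siRNA, against 1889 with RPL17 siRNA, 1952 with RPL27 siRNA and 672 with NC siRNA. Within each line the 2 other RPL siRNA libraries lay close together and the RPL9 library was at 54.4% of their mean in HCT116 and 55.7% in HT29, but in HT29 the NC library was lower still. The difference was -0.86 ± 0.069 (SE, n = 2 against 4; limma adjusted p = 0.0371).

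YWHAE encodes the epsilon form of the adaptor protein family that binds phosphorylated serine and threonine motifs. It stood at 1944 RPKM with RPL9 siRNA in HCT116, against 3364 with RPL17 siRNA, 3326 with RPL27 siRNA and 3842 with NC siRNA. In HT29 it stood at 1688 RPKM with RPL9 siRNA, against 2952, 2928 and 3107 RPKM in the RPL17, RPL27 and NC libraries. The RPL9 library was the lowest of all 4 libraries in both lines. The difference was -0.79 ± 0.060 (SE, n = 2 against 4; limma adjusted p = 0.0371). Whether either mRNA matches the RPL9 siRNA in part was not tested, since the siRNA sequences were not used here. The calls of MSN and YWHAE needed all 6 libraries: with any 1 of them left out, their adjusted p lay between 0.0977 and 0.681, while RPL9 was still called. They were also lost with no filter on low values (0.0943 for both) and without limma's trend (0.17 and 0.175). The same held with no cell line term (0.597 and 0.427). A limma fit of all 8 libraries with a level for each siRNA did not call them either (0.994 and 0.841).

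In the comparison of 2 against 4 libraries, the difference between RPL17 and RPL27 siRNA counts as spread. A fit in which RPL9, RPL17 and RPL27 siRNA each had a level of their own, and RPL9 was set against the mean of the other levels, called 54 genes higher (0.380% of those tested) and 62 lower (0.436%). These 116 genes included RPL9, MSN and YWHAE. Errors and p-values of this fit measure only how far the siRNA differences disagree between the lines. For 112 of the 116 genes the RPL9 library lay outside both others on the same side in both lines, which a fit of this kind favours. Over all genes tested the RPL9 library was above both others in both lines for 2495 genes (17.5%) and below both for 2417 genes (17%). The other 4 were RPL17 and RPL17-C18orf32, for which the RPL9 library lay between the others, and NT5E and BIRC3, for which it was above the RPL17 library in one line and below it in the other. A difference of more than 1 on the log2 scale was seen for 25 of the 116 genes. Lying outside both others is not a call against each. With RPL9 set against RPL17 and against RPL27 siRNA singly, 33 genes were called on the same side in both. For some of the 116, 1 siRNA gave most of the difference. That of UQCRC2 was 0.15 from RPL17 and 1.21 from RPL27 siRNA, and that of C2 was 3.48 and 0.99. All adjusted p-values in the next 4 paragraphs are from limma with 3 siRNA levels (n = 2 RPL9 libraries against 4 others), and the genes were chosen from the 116 after their values were seen.

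Among the lower genes were a cytosolic chaperone and members of a mixed list of translation factors. HSP90AA1, the inducible cytosolic chaperone of kinases and steroid receptors, stood at 12763 RPKM with RPL9 siRNA in HCT116, against 19093 with RPL17 and 20660 with RPL27 siRNA. In HT29 it stood at 7550 RPKM against 10911 and 11928 RPKM. It was thus at 64.2% and 66.1% of the mean of the others in HCT116 and HT29 (difference -0.62 ± 0.033, SE, adjusted p = 0.00368), and its adjusted p was 0.0732 in the comparison of 2 against 4. EIF4B, a cofactor of the helicase that opens mRNA leaders for translation, had a difference of -0.38. EEF1A1, which brings aminoacyl-tRNA to the ribosome, had a difference of -0.19, which lay between -0.22 and 6.4e-15 over 19 alternative settings. Translation factors as a list were not lower: of 17 tested, 5 (29.4%) were above both others in both lines and 3 (17.65%) below both. Their median was 0.02, and EEF1D was above both with a difference of 0.32. HNRNPC, a binding protein of nascent transcripts, had a difference of -0.45.

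Other lower genes encode regulators and surface or secreted proteins. PRKAR1A, the inhibitory regulatory subunit of protein kinase A, stood at 2040 RPKM with RPL9 siRNA, against 3518 and 3850 RPKM with RPL17 and RPL27 siRNA in HCT116. In HT29 the same 3 values were 1622, 3262 and 3720 RPKM (difference -0.98 ± 0.069, SE, adjusted p = 0.0123). BCL2L1, which encodes the survival factor BCL-XL, stood at 172 RPKM against 309 and 355 RPKM in HCT116 and at 187 RPKM against 369 and 369 RPKM in HT29 (difference -0.96 ± 0.093, SE, adjusted p = 0.0287). For both genes the RPL17 and RPL27 libraries of a line were close to each other and the RPL9 library stood well below them. With NC siRNA, PRKAR1A stood at 3472.5 RPKM in HCT116 and at 1232 RPKM in HT29, there below the RPL9 library. BCL2L1 stood at 209.5 and 202 RPKM with NC siRNA, nearer to the RPL9 library than to the RPL17 and RPL27 libraries in each line. FSTL1, a secreted glycoprotein related to follistatin, stood at 85.4 RPKM against 182 and 219 RPKM in HCT116 and at 35.9 RPKM against 110.5 and 125 RPKM in HT29 (difference -1.45). PRAME, a tumour antigen that is a substrate receptor of a ubiquitin ligase, stood at 52.2 RPKM against 138 and 117 RPKM in HCT116 and at 24.6 RPKM against 69.5 and 77.4 RPKM in HT29 (difference -1.40). CPE, a carboxypeptidase that processes prohormones, had a difference of -1.07, and SORL1, a sorting receptor of the endosome, one of -1.03. The lowest difference was that of SLC4A8, a sodium-driven bicarbonate exchanger, at -2.45, but its level was only 3.69 RPKM in the HCT116 and 1.42 RPKM in the HT29 RPL9 library.

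Among the higher genes, CPA4, a secreted carboxypeptidase, stood at 2944 RPKM with RPL9 siRNA in HCT116, against 1828 with RPL17, 913.5 with RPL27 and 258 with NC siRNA. In HT29 it stood at 2270 RPKM, against 1218, 617 and 187 RPKM in the same order. The order RPL9, RPL17, RPL27, NC was the same in both lines, and the difference was 1.29 ± 0.067 (SE, adjusted p = 0.00368). LAMB3, a laminin chain of epithelial basement membranes, stood at 2227, 1581, 951 and 339 RPKM in HCT116 in that order, and at 1433, 1002, 685 and 389 RPKM in HT29. It followed the order of CPA4, with a difference of 0.83. NAV3, a microtubule-binding protein, stood at 513 RPKM against 196 and 248 RPKM in HCT116 and at 268 RPKM against 81.7 and 77.3 RPKM in HT29 (difference 1.48). AGPAT4, an acyltransferase of phospholipid synthesis, had a difference of 1.84. The receptor tyrosine kinases EGFR and MET had differences of 0.82 and 0.58, DSP (desmoplakin, of desmosomes) one of 0.56, and RGS2, which speeds the turning off of G proteins, one of 1.04. The highest difference, 2.23, was that of the complement component C2, which stood at 32.1 RPKM against 2.48 and 17.6 RPKM in HCT116 and at 28.9 RPKM against 1.30 and 12.4 RPKM in HT29.

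MDM2, the ubiquitin ligase that free RPL5 and RPL11 can bind, stood at 5026 RPKM with RPL9 siRNA in HCT116, against 3774 with RPL17, 3696 with RPL27 and 986 with NC siRNA. The HT29 value was 3646 RPKM, against 2622, 2702 and 168 RPKM. The RPL17 and RPL27 libraries were near each other and the RPL9 library was at 135% of their mean in HCT116 and 137% in HT29 (difference 0.44 ± 0.045, SE, adjusted p = 0.0287). PKM, pyruvate kinase of muscle and tumours, and UQCRC2, a subunit of respiratory complex III, had their RPL siRNA libraries in the order of CPA4 but with another spacing. PKM stood at 11912 RPKM with RPL9, 9941 with RPL17 and 5151 with RPL27 siRNA in HCT116, and at 12855, 10738 and 5768 RPKM in HT29 (difference 0.72). For PKM the RPL27 libraries were far lower than the other 2, so that the difference from RPL17 siRNA was 0.26 and that from RPL27 siRNA 1.18.

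**Figure D2:**
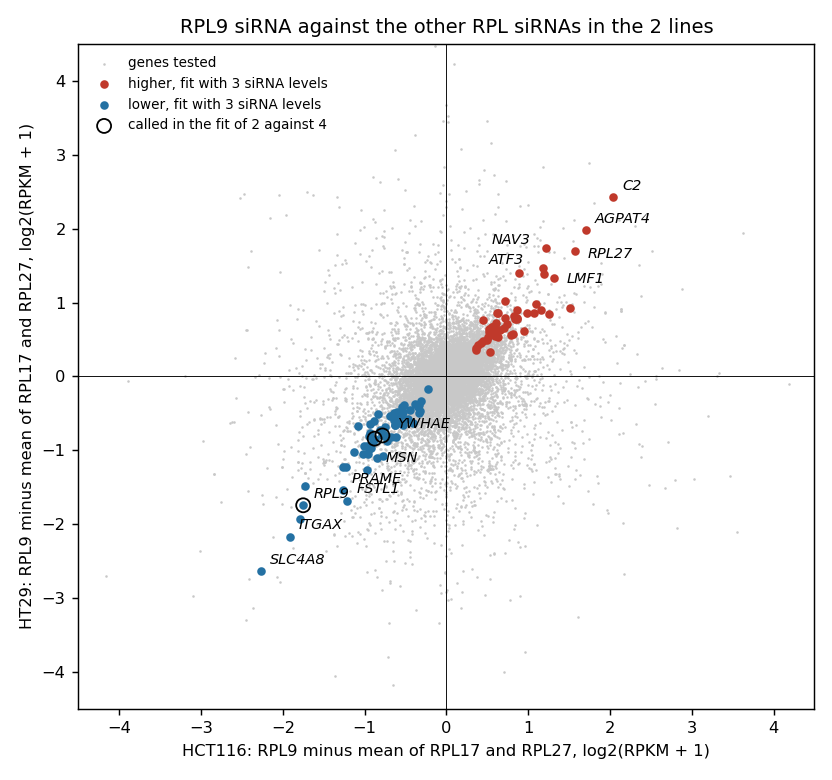
Difference of the RPL9 library from the mean of the RPL17 and RPL27 libraries in HCT116 (x axis) and HT29 (y axis), in log2(RPKM + 1), for the 14217 genes tested (grey points). Red and blue points are the 54 genes higher and the 62 lower in the fit with 3 siRNA levels, circles the 3 genes of the fit of 2 against 4. The called genes lie near the diagonal, which both fits favour because disagreement between the lines counts as spread. The grey points spread round 0 in every direction.

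Between the lines, no gene had a difference that itself differed between HCT116 and HT29: the limma interaction of line and RPL9 siRNA called 0 of 14217 genes (0%), with 588 genes at an unadjusted p under 0.05. It also called 0 in each alternative run, and its smallest adjusted p was 0.9999, with 2 residual degrees of freedom. Across all genes tested, the differences in HCT116 and HT29 had a Pearson correlation of 0.22 and the same sign for 8870 genes (62.4%). Genes are not independent replicates and the genes of a line share its 3 libraries. The SD of the differences over genes was 0.49 in HCT116 and 0.57 in HT29, with medians of 0.01 and -0.01.

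Gene lists for pathways were read by how many tested members had the RPL9 library outside both others on the same side in both lines, beside 17.5% above and 17% below for all genes, and by their median difference, beside 0.00087 for all genes. The lists were chosen with earlier results of these data known, and no test over a list was made. Except for RPL9 itself, no member of any pathway list was called in the comparison of 2 against 4 libraries. Where a list's members are named without a call, their values are a description.

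The unfolded protein response list holds chaperones and folding enzymes of the endoplasmic reticulum (ER) and their regulators, which cells raise when unfolded proteins gather there. Of its 23 tested members the RPL9 library was below both others in both lines for 13 (56.5%) and above both for 1 (4.35%). The median difference was -0.17, at -0.19 in HCT116 and -0.16 in HT29. The members below both included the chaperones HSPA5, HSP90B1, DNAJC3 and DNAJB11, the lectin chaperone CANX, the disulfide isomerases PDIA3 and PDIA4, the secreted factor MANF, the degradation factors SEL1L and SYVN1, and the sensor ATF6. The ER stress response element (CCAAT and CCACG parted by 9 bases), a known control element of many of these genes, was searched for on both strands in the 250 bases before each gene's start. It was found in 26 of the 35114 promoters of the RefSeq table (0.074%; GRCh38.p14), and in 7 of the 22 members with an entry: HSPA5, HSP90B1, CANX, CALR, PDIA6, XBP1 and CRELD2. It was found in 3 of the 12 members below both that had an entry. The promoters of those 3 are printed 5′ to 3′ in the direction of the gene, with the element in capitals. HSPA5 lies at chr9:125241344-125241593 on the minus strand, HSP90B1 at chr12:103930160-103930409 on the plus strand, with 1 element on each strand, and CANX at chr5:179698679-179698928 on the plus strand.
HSPA5: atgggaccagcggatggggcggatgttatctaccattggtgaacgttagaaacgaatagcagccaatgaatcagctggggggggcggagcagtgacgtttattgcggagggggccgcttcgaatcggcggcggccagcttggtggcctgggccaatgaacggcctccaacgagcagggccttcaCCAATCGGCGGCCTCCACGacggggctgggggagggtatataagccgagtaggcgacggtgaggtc
HSP90B1: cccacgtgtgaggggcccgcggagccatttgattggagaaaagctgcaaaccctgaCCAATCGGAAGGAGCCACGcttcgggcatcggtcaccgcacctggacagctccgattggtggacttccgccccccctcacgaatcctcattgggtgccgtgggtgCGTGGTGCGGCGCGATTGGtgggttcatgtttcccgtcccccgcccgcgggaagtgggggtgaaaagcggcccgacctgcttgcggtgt
CANX: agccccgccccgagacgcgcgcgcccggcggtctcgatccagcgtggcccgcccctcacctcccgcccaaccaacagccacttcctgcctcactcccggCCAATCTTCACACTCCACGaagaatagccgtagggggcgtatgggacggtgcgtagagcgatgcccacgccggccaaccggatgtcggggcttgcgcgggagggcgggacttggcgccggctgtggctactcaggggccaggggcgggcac

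HSPA5, the main chaperone of the ER lumen, stood at 2603 RPKM with RPL9 siRNA in HCT116, against 2872 with RPL17, 3070 with RPL27 and 4009 with NC siRNA. Its HT29 values were 2389, 2400, 2690 and 3691 RPKM in the same order, so that the RPL9 and RPL17 libraries of HT29 hardly differed. HSP90B1, its partner chaperone, stood at 9722, 11251, 11126 and 15572 RPKM in HCT116 and at 8912, 10634, 10278 and 17567 RPKM in HT29. For both genes the RPL9 library was the lowest of 4 in each line, with differences of -0.14 (limma adjusted p = 0.479) and -0.22 (limma adjusted p = 0.198). HYOU1, an ER chaperone of the same family as HSPA5, stood at 2300 RPKM with RPL9 siRNA against 2914 and 2892 RPKM in HCT116, and at 2219 RPKM against 3238 and 3051 RPKM in HT29. Its difference of -0.42 was called with 3 siRNA levels (limma adjusted p = 0.0459), the 1 such member. CREB3L2, a membrane-bound transcription factor of the ER, had a difference of -0.52, and MANF one of -0.32. DNAJB9, a cochaperone, was the member above both (0.24). CALR, PDIA6, XBP1, CRELD2, ERN1, EDEM1, HERPUD1, SDF2L1 and SEC61B were outside both in neither direction.

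**Figure D3:**
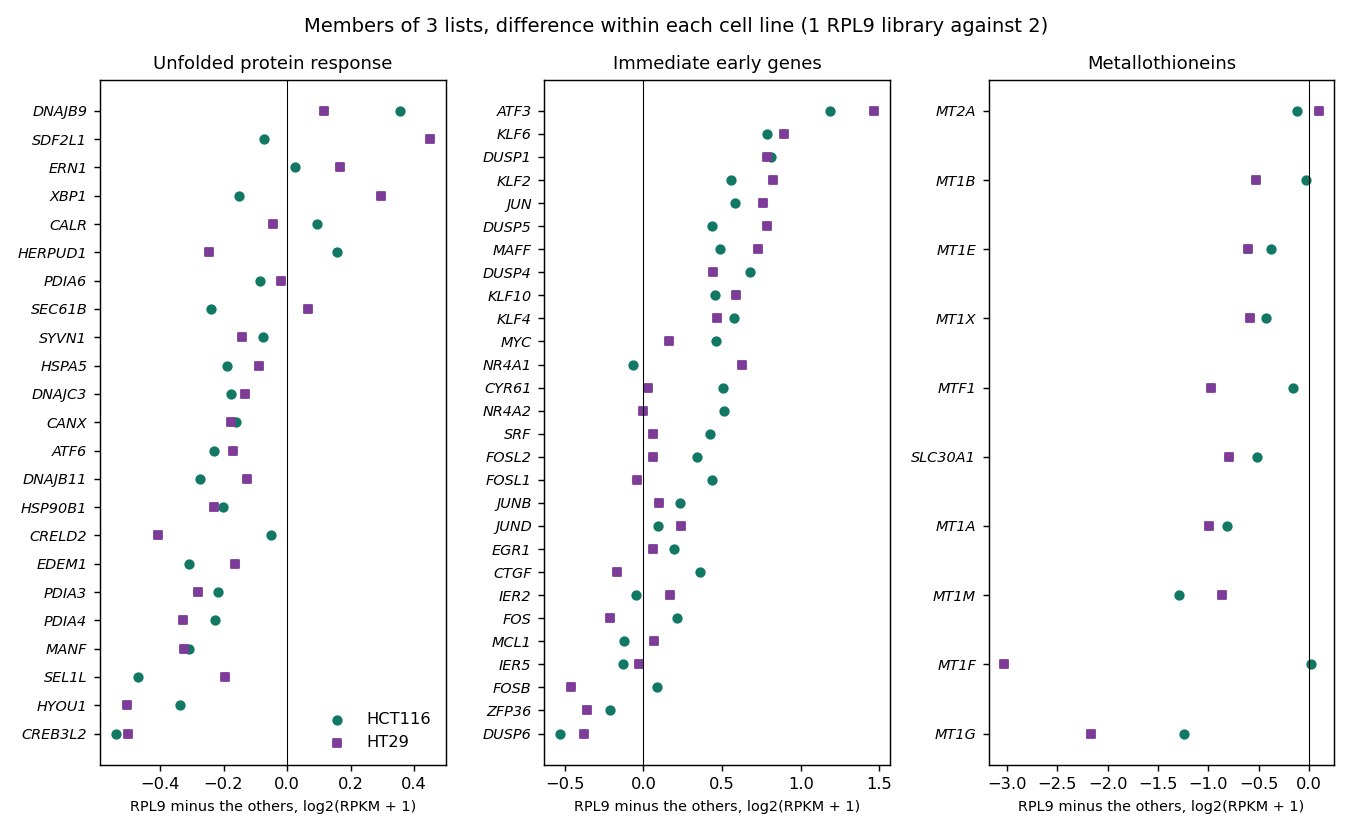
Difference of the RPL9 library from the mean of the RPL17 and RPL27 libraries (x axis, log2(RPKM + 1)) in HCT116 (circles) and HT29 (squares) for each tested member of the unfolded protein response, immediate early and metallothionein lists (y axis). Each point is 1 RPL9 library against 2 others; for CREB3L2, HYOU1 and MANF both points lie below 0, for ATF3, KLF6 and DUSP1 both lie above 0.

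Metallothioneins are small cysteine-rich proteins that bind zinc and copper, and their genes answer to free zinc through the transcription factor MTF1. All 10 tested members of the list, which also holds MTF1 and the zinc exporter SLC30A1, had a difference below 0. For 5 (50%) the RPL9 library was below both others in both lines. These 5 included MTF1 and SLC30A1, which are not metallothioneins, and MTF1 had differences of -0.15 in HCT116 and -0.98 in HT29. The median of the list was -0.61, at -0.40 in HCT116 and -0.83 in HT29. Against RPL17 siRNA alone it was -0.10 in HCT116 and -1.15 in HT29, and against RPL27 siRNA alone -0.48 and -0.38. The metallothionein genes are near-identical copies, between which reads may have been split, and MT1G and MT1M reached at most 11.7 RPKM in any library. MT1X stood at 129 RPKM with RPL9 siRNA against 198 and 152 RPKM in HCT116, and at 87.7 RPKM against 168 and 104 RPKM in HT29. SLC30A1 stood at 15.0 RPKM against 22.1 and 21.8 RPKM in HCT116, and at 11.3 RPKM against 21.6 and 19.2 RPKM in HT29. Their differences were -0.51 (limma adjusted p = 0.377) and -0.66 (limma adjusted p = 0.275). MT2A, another copy, was between the others in both lines (difference -0.01). The core of the metal response element (TGCACNC or TGCGCNC, both strands) occurred in 24.8% of all promoters of the table and at least 2 times in 6.48%. It was found in 4 of the 5 members with an entry: MT2A (7 matches), MT1X (4), MT1B (3) and SLC30A1 (1). The MT1X promoter (chr16:56682220-56682469, plus strand) and the SLC30A1 promoter (chr1:211579162-211579411, minus strand) are printed in the same way, to set the member with several matches beside the one with a single match.
MT1X: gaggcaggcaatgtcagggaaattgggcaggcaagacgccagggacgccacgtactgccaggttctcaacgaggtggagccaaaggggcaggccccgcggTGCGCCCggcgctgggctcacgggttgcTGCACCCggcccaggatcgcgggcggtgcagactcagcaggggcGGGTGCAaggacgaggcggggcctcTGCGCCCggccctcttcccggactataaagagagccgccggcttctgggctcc
SLC30A1: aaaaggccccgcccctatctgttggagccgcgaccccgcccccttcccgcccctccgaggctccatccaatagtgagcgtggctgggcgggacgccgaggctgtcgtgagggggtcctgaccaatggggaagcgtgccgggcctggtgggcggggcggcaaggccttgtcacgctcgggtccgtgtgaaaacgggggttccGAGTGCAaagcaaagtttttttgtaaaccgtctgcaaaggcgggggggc

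Genes of ribosome biogenesis lay mostly on the other side. Of 58 tested genes for assembly factors, nucleolar proteins and RNA polymerase I, the RPL9 library was above both others in both lines for 23 (39.7%) and below both for 1 (MDN1). The difference was above 0 for 53 of the 58, with a median of 0.12, at 0.13 in HCT116 and 0.13 in HT29. These differences were small. NOP16, an assembly factor of the large subunit, stood at 692 RPKM with RPL9 siRNA against 466 and 446 RPKM in HCT116, and at 633 RPKM against 373 and 391 RPKM in HT29 (difference 0.66, limma with 3 levels adjusted p = 0.0327). EIF6, which keeps a new large subunit from joining the small one, stood at 1949 RPKM against 1372 and 1500 RPKM in HCT116, and at 1944 RPKM against 1416 and 1364 RPKM in HT29 (difference 0.46, limma with 3 levels adjusted p = 0.042). Both were above the other RPL libraries in each line, and no other member of the list was called in that fit. SBDS, which helps to release EIF6 from the new subunit, stood at 576 RPKM against 529 and 399 RPKM in HCT116 and at 545 RPKM against 495 and 387 RPKM in HT29 (difference 0.32). BOP1 and PES1, which form one complex of large-subunit assembly, had differences of 0.30 and 0.17 and were above both in both lines.

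The ribosomal protein genes themselves did not share a side. Of the 47 genes of the large subunit, 5 were above both others in both lines (among them RPL27, RPL10, RPL22 and RPL13A) and 5 below both (RPL9, RPL3, RPL6, RPL38 and RPL13), with a median of 0.02 (-0.0019 with quantile normalization). Within a line the picture was different: the RPL9 library was below both others for 24 of the 47 (51.1%) in HCT116, beside 31.2% of all genes, and above both for 28 (59.6%) in HT29, beside 35.1% of all genes. The 32 genes of the small subunit gave 16 (50.0%) below both in HCT116 and 22 (68.8%) above both in HT29. The medians were -0.01 and -0.04 for the large and small subunit genes in HCT116 and 0.12 and 0.11 in HT29, where quantile normalization lowered them to 0.03 and 0.03. RPL5 and RPL11, which can bind MDM2, had differences of 0.10 and -0.03 and lay outside both in neither direction. Of the paralogs, RPL7L1 stood at 1404 RPKM against 1096 and 1115 RPKM in HCT116, and at 1331 RPKM against 1070 and 908 RPKM in HT29 (difference 0.39, limma adjusted p = 0.207).

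The 34 tested NF-kB genes comprise subunits of this transcription factor and targets that feed back on it. The RPL9 library was above both others in both lines for 14 (41.2%) and below both for 4, with a median of 0.24, at 0.29 in HCT116 and 0.15 in HT29. The 14 included the subunits NFKB1, NFKB2, RELA and RELB, the kinase MAP3K14, the adaptors TRAF1, TRAF2 and TRAF3, and the inhibitors TNFAIP3, CYLD, TNIP1, TNIP2 and NFKBIB. With 3 siRNA levels, NFKB2 (0.60), CFLAR (0.75) and BIRC3 (1.14) were called higher. CFLAR, which blocks caspase activation at death receptors, stood at 348 RPKM with RPL9 siRNA against 223 and 202 RPKM in HCT116, and at 367 RPKM against 228 and 197 RPKM in HT29. BIRC3, an inhibitor of apoptosis, stood at 223, 250.5 and 57.5 RPKM with RPL9, RPL17 and RPL27 siRNA in HCT116, and at 282, 231 and 49.0 RPKM in HT29. It was therefore much lower with RPL27 siRNA and did not separate RPL9 from RPL17 siRNA. The 4 members below both were MMP9, ICAM1, CD40 and PLAU, which encode a matrix protease, an adhesion molecule, a receptor and an activator of plasminogen.

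Immediate early genes are transcribed within minutes of a stimulus without new protein synthesis. Of 28 tested, 11 (39.3%) had the RPL9 library above both others in both lines and 1, DUSP6, below both, with a median of 0.25. The median was 0.43 in HCT116 and 0.13 in HT29. ATF3, a stress-induced transcription factor, stood at 163 RPKM with RPL9, 109 with RPL17 and 46.4 with RPL27 siRNA in HCT116, and at 179, 110 and 37.1 RPKM in HT29 (difference 1.33, limma with 3 levels adjusted p = 0.0311). It was the 1 member called in that fit, and it kept the order RPL9, RPL17, RPL27 in both lines. KLF6, a zinc-finger factor, stood at 170 RPKM against 105 and 91.6 RPKM in HCT116 and at 144 RPKM against 78.7 and 75.8 RPKM in HT29 (difference 0.84, limma with 3 levels adjusted p = 0.052). DUSP1, a phosphatase of MAP kinases, stood at 46.3 RPKM against 32.3 and 20.8 RPKM in HCT116 and at 24.3 RPKM against 12.8 and 14.6 RPKM in HT29 (difference 0.80). JUN, a subunit of AP-1, and the growth regulator MYC were also above both others, with differences of 0.67 and 0.31.

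The ATF4 list holds genes of the amino acid response, which ATF4 drives when translation initiation is held back. Of 45 tested, 12 (26.7%) were above both others in both lines and 4 below both, with a median of 0.09. ATF4 itself stood at 858 RPKM with RPL9 siRNA against 624 and 612 RPKM in HCT116, and at 739 RPKM against 555 and 554 RPKM in HT29 (difference 0.44, limma adjusted p = 0.17). STC2, a secreted glycoprotein, stood at 154 RPKM against 72.9 and 85.1 RPKM in HCT116 and at 134 RPKM against 50.0 and 47.1 RPKM in HT29 (difference 1.20, limma adjusted p = 0.125). In both genes the RPL17 and RPL27 libraries of a line were close and the RPL9 library was above them. JDP2, a partner of AP-1 proteins, and PSPH, the last enzyme of serine synthesis, had differences of 0.80 and 0.55. SARS, the seryl-tRNA synthetase, was called with 3 siRNA levels (0.37, limma adjusted p = 0.0484). PHGDH, the first enzyme of serine synthesis, was below both (-0.21).

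**Figure D4:**
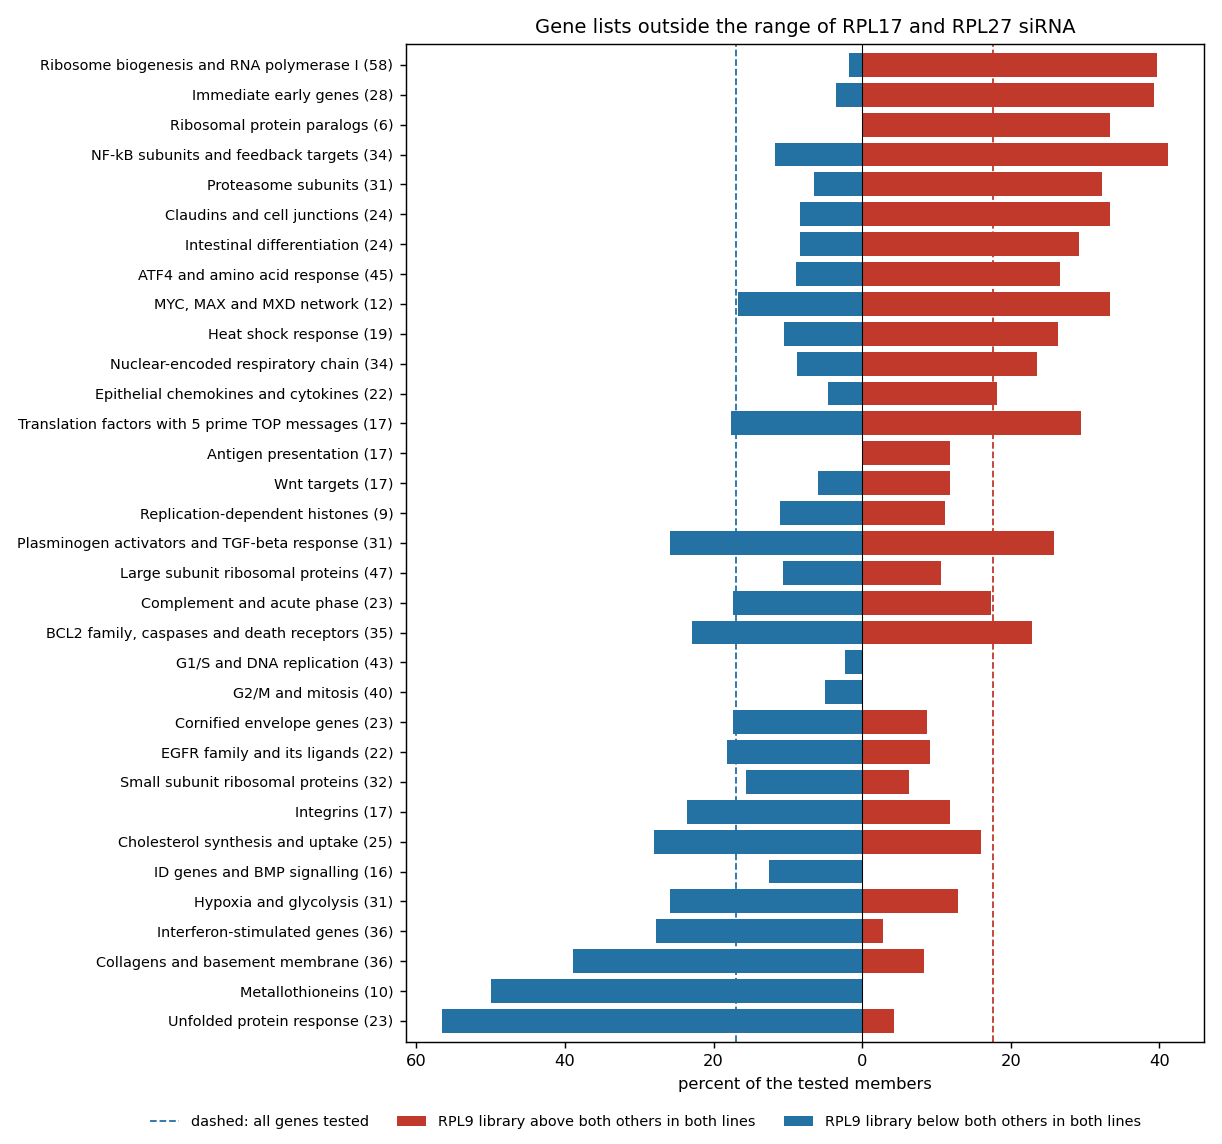
Percent of the tested members of 33 gene lists (number in brackets) for which the RPL9 library lay above (red, to the right) or below (blue, to the left) both other RPL siRNA libraries in both lines. Dashed lines mark the same for all genes tested, 17.5% above and 17% below; the unfolded protein response list reaches 56.5% below and the ribosome biogenesis list 39.7% above.

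Cell cycle genes lay between the other siRNAs. Of 40 tested genes of G2/M and mitosis, 27 were below RPL17 and above RPL27 siRNA in both lines, a place taken by 743 of all genes tested (5.23%), and so were 27 of 43 genes of G1/S and DNA replication. No gene of either list was above both in both lines, and 2 and 1 were below both. For G2/M the median difference from RPL17 siRNA was -0.45 in HCT116 and -0.22 in HT29, and that from RPL27 siRNA was 0.15 and 0.18. These differences share the RPL9 libraries. CDC25C, the phosphatase that activates the mitotic kinase, was an exception: it stood at 87.5 RPKM with RPL9 siRNA against 148 and 113 RPKM in HCT116, and at 85.2 RPKM against 154 and 123 RPKM in HT29. Its difference was -0.63 (limma adjusted p = 0.23). The kinetochore protein NUF2 (-0.22) and CDC7, a kinase that fires replication origins (-0.40), were also below both.

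**Figure D5:**
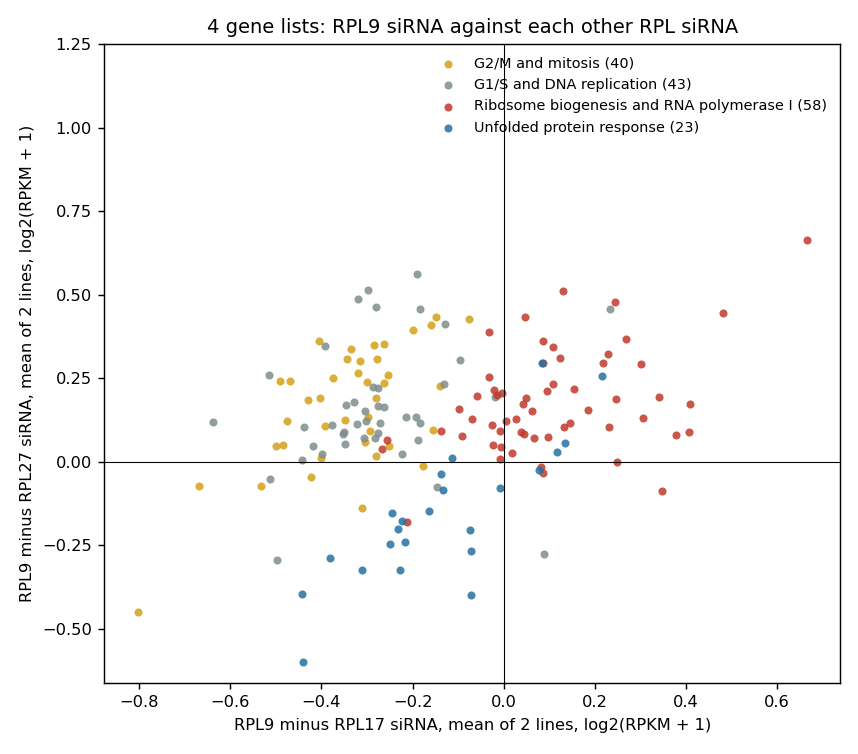
Difference of RPL9 from RPL17 siRNA (x axis) and from RPL27 siRNA (y axis), each the mean of 2 lines in log2(RPKM + 1), for the members of 4 gene lists (1 point per gene, colours by list). Both axes use the same RPL9 libraries; most cell cycle genes (27 of 40 for G2/M and 27 of 43 for G1/S in both lines) lie left of 0 and above 0, and most unfolded protein response genes lie in the lower left.

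CDKN1A, the inhibitor of cell cycle kinases, stood at 1195 RPKM with RPL9 siRNA against 958 and 1133 RPKM in HCT116, and at 834 RPKM against 762 and 864 RPKM in HT29 (difference 0.12, limma adjusted p = 0.675). SFN, a checkpoint protein, was above both (0.54), while TNFRSF6B, a decoy receptor, was below both (-0.78). Of 35 genes of the BCL2 family, caspases and death receptors, 8 were above both and 8 below both. The survival factor BCL2L1, given above, was below both and the caspase inhibitor CFLAR above both. BAX, a pore-forming effector of cell death, was below both (-0.18) and its relative BAK1 above both (0.42).

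Genes of the extracellular matrix and of the interferon response were more often below than above. Of 36 tested collagen and basement membrane genes, 14 (38.9%) were below both others in both lines and 3 above both, with a median of -0.18. The 3 above both were COL4A1 (1.05), LAMB3 (0.83) and COL17A1 (0.77), which encode basement membrane and hemidesmosome proteins. COL16A1, a fibril-associated collagen, stood at 34.5 RPKM against 70.6 and 47.7 RPKM in HCT116 and at 334 RPKM against 604 and 401 RPKM in HT29 (difference -0.65). Of 36 tested interferon-stimulated genes, 10 (27.8%) were below both and 1, ISG15, above both, with a median of -0.17. HERC5, the ligase that attaches ISG15 to proteins, stood at 159 RPKM against 236 and 209 RPKM in HCT116, and at 77.9 RPKM against 132 and 122 RPKM in HT29 (difference -0.59, limma adjusted p = 0.198). The RNA helicase relative DDX60 and the ligase relative HERC6 had differences of -0.56 and -0.53.

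Proteasome subunits gave 10 of 31 (32.3%) above both and 2 below both, with a median of 0.08. PSMC4, an ATPase of the regulatory particle, stood at 1806 RPKM against 1436 and 1595 RPKM in HCT116 and at 1485 RPKM against 1176 and 1216 RPKM in HT29 (difference 0.28). Of 24 claudins and other junction genes 8 (33.3%) were above both and 2 below both, with a median of 0.12. Of 19 heat shock genes 5 were above both, among them HSF1, the master regulator (0.34), and HSPA8, the constitutive chaperone (0.21), while HSP90AA1 was below both. Cholesterol synthesis genes gave 7 of 25 below both and 4 above both. Integrins gave 4 of 17 below both and 2 above both, with ITGA3, which pairs with the beta-1 chain to bind laminins, called with 3 siRNA levels (-0.58, limma adjusted p = 0.0342). The ITGA3 difference was -0.28 from RPL17 siRNA and -0.88 from RPL27 siRNA. The hypoxia and glycolysis list gave 8 of 31 below both and 4 above both.

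The intestinal differentiation list differed between the lines, with a median of 0.58 in HCT116 and 0.0033 in HT29 over 24 tested genes, of which 7 were above both in both lines. In HCT116 these genes were low. The keratin KRT20 stood there at 16.3 RPKM with RPL9 siRNA against 2.32 and 2.56 RPKM, and in HT29 at 1290 RPKM against 1252 and 879 RPKM. AGR2, a disulfide isomerase of secretory cells, stood at 9.66 RPKM against 0 and 0.127 RPKM in HCT116 and at 2634 RPKM against 3526 and 1835 RPKM in HT29. Beside this stands the level in HCT116 of 32 genes that were at least 100 RPKM in the HT29 NC library and at most 1% of that in the HCT116 NC library. Their median level in HCT116 as a percent of that in HT29 was 0.538% with RPL9, 0.491% with RPL17 and 0.112% with RPL27 siRNA. With NC siRNA it was 0, and the choice of these genes on the NC libraries had held it to at most 1%. The HCT116 RPL9 library was above both others for 13 of the 32 (40.6%), beside 34.5% of all genes in HCT116, and below both for 4. Their part in the values of the intestinal list was not tested.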

How the data were processed

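RNA sequencing of total RNA from 8 transfected samples was deposited by the authors as RPKM for 19124 gene symbols, per the file headers. The submitters' processing notes name CASAVA 1.8.2, TopHat2 2.0.9 and hg19. The counting of reads per gene is not given in these sources, and without counts the depth is only estimated (52.5 to 60.9% of low values were within 0.05 of whole reads), so no count test was run.

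From these values, log2(RPKM + 1) of the 6 RPL siRNA libraries was fitted with limma 3.58.1 in R 4.3.3 (trend, cell line as a term, 3 residual degrees of freedom, genes averaging 1 RPKM or more). Tests were two-sided with Benjamini-Hochberg adjustment over all genes tested, called under 0.05. The procedure was tested on simulated data without a difference between RPL17 and RPL27 siRNA, so that part of the spread was not tried. A fold on this scale understates the change of low genes. Of the 14217 genes, 49 shared all their values with another gene (0.345%). Samples were grouped by their titles.

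The members and the 38 gene lists, 4 of them cell type markers, were chosen with earlier results of these data known. Named were the targeted genes, called genes averaging 5 RPKM or more, and of each list its called members or up to 3 members outside both other siRNAs in both lines; other names were chosen after their values were seen. The line difference was tested as an interaction. Alternatives were other pseudocounts, filters, scalings, variance models, terms, length and GC correction, and leaving out libraries. Transcript lengths came from GENCODE 29 on GRCh38, matched by RefSeq transcript identifier. Promoter sequences came from RefSeq on GRCh38.p14, matched by symbol. No gene coordinate was read from the deposited files. Some genes and 1 list are not reported here.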

Additional observations from a re-analysis of the deposited data

Results flagged for a closer look

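Several gene lists had a median difference of RPL9 from the other RPL siRNAs with opposite signs in the 2 lines, and 3 of them were flagged. Lists not flagged included the fibroblast markers (-0.05 in HCT116 and 0.67 in HT29) and the epithelial chemokines and cytokines (-0.07 and 0.20). For large subunit ribosomal proteins the median was -0.01335 in HCT116 and 0.12 in HT29. For small subunit ribosomal proteins it was -0.03677 in HCT116 and 0.1079 in HT29. For the leukocyte markers, 7 of which were tested, it was 0.1309 in HCT116 and -0.3745 in HT29. With quantile normalization the large subunit values were -0.0322 and 0.0316 and the small subunit values -0.0273 and 0.0314, so that the HT29 values shrank while the signs stayed opposite. With length and GC trends removed the HCT116 values were -0.0061 and -0.0059. The difference between the lines was not tested for a list, and no gene of these lists was called in the interaction of line and siRNA.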

How the results depend on the processing

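Under 21 alternative settings, RPL9 remained called in all but limma without the trend and the fit of all 8 libraries with NC. The count of genes higher was 0 except with 3 siRNA levels: 54 against the mean of the others, 47 against RPL17 siRNA alone and 127 against RPL27 siRNA alone. The matching counts of genes lower were 62, 33 and 100. In place of 3 lower genes there was 1 with no filter on low values, 1 with no cell line term (no replicate block) and 0 without the trend. The fit of all 8 libraries gave each siRNA a level of its own, and the NC libraries add their spread. It called 0 genes higher and 0 lower, beside 54 and 62 with 3 siRNA levels. Leaving out each library in turn, which leaves fewer samples, gave 1 lower gene every time, RPL9. The quantile scaling added HSP90AA1 (-0.66, adjusted p = 0.0183) and a mean of at least 5 RPKM added PRKAR1A (-0.98, adjusted p = 0.0485), each giving 4. Over these alternatives the difference of MSN lay between -0.91 and -0.84 and that of YWHAE between -0.81 and -0.78. The interaction could not be fitted without an RPL9 library and called 0 genes otherwise. Correction for length with GC content was added after seeing the data. No paired analysis beyond the cell line term was possible because a library number marks only the line.

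Over 17 alternatives the median of the unfolded protein response list lay between -0.21 and -0.13, that of ribosome biogenesis between 0.09 and 0.15, that of NF-kB between 0.15 and 0.29, and that of immediate early genes between 0.13 and 0.43. With length and GC trends removed, 13 unfolded protein response genes were below both other siRNAs, 26 ribosome biogenesis genes and 13 NF-kB genes above. The sign of the G2/M list changed in 2. Low values limit the metallothionein, complement and intestinal lists, where an RPKM step of 1 read is a large part of the level.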

Other observations

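RASA4, which encodes a GTPase-activating protein of RAS, was not called but had a larger difference of RPL9 from the other RPL siRNAs than any of the 116 genes called with 3 siRNA levels. It stood at 1537 RPKM with RPL9 siRNA against 65.1 and 235 RPKM in HCT116, and at 967 RPKM against 207 and 305 RPKM in HT29 (2.78, limma adjusted p = 0.184). It was chosen after its values were seen. Its nearest tested neighbours in the order of the RefSeq gene table (GRCh38.p14, used for order only) were also above both other siRNAs in both lines: UPK3BL (1.40), SPDYE2 and SPDYE2L (1.30 each, with identical values), POLR2J2 (1.22) and POLR2J3 (0.67). POLR2J, farther along, was not (0.10). These genes belong to multi-copy families whose copies may share reads, and the part of shared reads in these values was not tested.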
